A study of Homo sapiens with 6 samples.

Results

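Mitochondrial ribosomal protein genes encode the protein part of the mitoribosome, the ribosome inside mitochondria. They were taken as all genes whose symbol begins with MRPL (large subunit) or MRPS (small subunit) followed by a number and at most 1 letter. Only probe sets annotated to that gene alone were used, and the probe set with the highest mean over all arrays stood for each gene. This gave 75 genes, 48 of the large and 27 of the small subunit, among 19775 genes named in this way on the array. MRPL53 and MRPS24 were left out because their probe sets are annotated to a further gene as well.

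The 6 arrays came from BL2, an established human Burkitt lymphoma cell line of B cell origin, electroporated either with siRNA against LEF1 (3 arrays, 4 siRNAs pooled per the design text) or with scrambled siRNA (3 arrays). LEF1 is a DNA-binding transcription factor that works with beta-catenin in Wnt signalling. The labels number 3 batches, each with 1 LEF1 siRNA and 1 scrambled siRNA array. Both groups were electroporated, no untreated cells were part of the comparison, and all arrays come from 1 cell line. The design text calls the replicates biological, but the labels do not say how the cultures were separated, so p-values measure the spread between these arrays, which may be technical. All values below are log2 expression per probe set, and errors of group means are SDs over 3 arrays.

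The mitoribosome makes the few proteins that mitochondrial DNA encodes, which are core subunits of the respiratory chain and of ATP synthase. Its own proteins are all encoded in the nucleus, made in the cytosol and imported. Part of them belong to families that bacterial ribosomes also have, and part have no counterpart in the bacterial ribosome. Expression of these genes is known to go with growth rate and mitochondrial mass, and MYC, the oncogene activated in Burkitt lymphoma, is among the factors known to raise it.

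LEF1 itself was lower in LEF1 siRNA arrays of each batch. At its brightest probe set it read 8.21, 8.09 and 8.67 with LEF1 siRNA and 11.09, 10.58 and 11.45 with scrambled siRNA in batches 1, 2 and 3. That is a difference of -2.71 (limma adjusted p = 7.46e-11 with batch as block). The B cell genes CD79A, CD79B, MS4A1 and PAX5 were well above the array median of 6.91 (means over 6 arrays from 11.5 to 13.6). The 4 T cell, 3 myeloid and 3 epithelial markers lay between 6.14 and 7.09. Of the fibroblast markers COL1A2 and DCN lay near the median, and COL1A1 read 8.05 with LEF1 siRNA and 8.02 with scrambled siRNA. Of the germinal centre markers BCL6, CD38 and MME, all above the median, MME fell by 0.43 (limma adjusted p = 0.000605 with batch as block, 0.7 without). The batch label pairs the arrays: across probe sets, the deviations of arrays that share batch 1, 2 or 3 from their group means had a correlation of 0.477, 0.493 or 0.621. For arrays of different batches and groups it ran from -0.387 to -0.041. Because each batch holds 1 array of each group, the main comparison was made within batches, with the fit without block beside it.

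Promoter windows are shown for MRPL58, MRPL11, MRPS26 and MRPL19, genes that passed the test described below and that have a single window in the RefSeq table. Each runs from 250 bases before to 50 bases after the annotated start, in GRCh38.p14, 5′ to 3′ on the gene's strand. Capitals mark matches to the motifs searched further below.
MRPL58, chr17:75012420-75012719, strand +: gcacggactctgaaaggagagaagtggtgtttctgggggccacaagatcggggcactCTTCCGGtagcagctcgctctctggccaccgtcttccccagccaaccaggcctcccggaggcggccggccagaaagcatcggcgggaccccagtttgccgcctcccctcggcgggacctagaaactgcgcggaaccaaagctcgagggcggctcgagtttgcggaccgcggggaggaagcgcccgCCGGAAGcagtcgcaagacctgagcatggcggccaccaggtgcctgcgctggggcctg
MRPL11, chr11:66438799-66439098, strand -: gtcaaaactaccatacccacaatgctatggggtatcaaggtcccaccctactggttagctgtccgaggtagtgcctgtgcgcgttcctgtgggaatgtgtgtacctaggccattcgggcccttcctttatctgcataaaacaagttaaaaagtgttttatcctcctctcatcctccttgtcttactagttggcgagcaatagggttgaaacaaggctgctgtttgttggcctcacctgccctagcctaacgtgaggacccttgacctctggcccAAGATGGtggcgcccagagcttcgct
MRPS26, chr20:3045802-3046101, strand +: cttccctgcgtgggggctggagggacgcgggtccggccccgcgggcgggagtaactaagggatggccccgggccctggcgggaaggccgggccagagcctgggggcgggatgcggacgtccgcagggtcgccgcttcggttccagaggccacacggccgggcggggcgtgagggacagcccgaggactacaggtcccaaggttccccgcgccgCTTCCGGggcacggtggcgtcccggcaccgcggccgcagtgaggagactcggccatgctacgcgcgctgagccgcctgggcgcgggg
MRPL19, chr2:75646533-75646832, strand +: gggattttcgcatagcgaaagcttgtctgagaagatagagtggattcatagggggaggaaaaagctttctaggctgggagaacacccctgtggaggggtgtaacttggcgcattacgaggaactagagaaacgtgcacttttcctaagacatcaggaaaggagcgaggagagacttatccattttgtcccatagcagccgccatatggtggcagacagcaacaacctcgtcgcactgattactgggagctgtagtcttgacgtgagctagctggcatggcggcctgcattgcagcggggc

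After LEF1 siRNA 5 of the 75 genes fell and 1 rose in the fit with batch as block. The genes that fell were MRPL58, MRPL11 and MRPL34 of the large and MRPS28 and MRPS26 of the small subunit, by 0.23 to 0.33 on the log2 scale. In bulk RNA, fewer cells of a type and less RNA per cell cannot be told apart. MRPL19, of the large subunit, rose by 0.26. As background, the same test called 1.51% of all 54613 probe sets lower and 4.58% higher (6.09% in either direction). Among genes taken at 1 probe set each, it called 1.7% lower and 6.73% higher (8.43%). The genes here were well expressed, with means from 8.66 to 12.66 and none below the array median. Among the 5472 genes within that range of means, 4.86% were called lower and 14.7% higher (19.5%). Of the mitochondrial ribosomal protein genes 6.67% were called lower and 1.33% higher. Genes in the range were dimmer on average, with a median level of 9.83, against 10.71 for the mitochondrial ribosomal protein genes. Among the 1166 genes within the interquartile range of the members' levels, with a median of 10.78, 6.60% were called lower and 12.4% higher. The share called lower was near that of genes of like level, and the share called higher was below it. No test of that difference in shares was made.

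Without block 0 of the 75 genes passed, against 0.0183% of all probe sets, 0.0253% of genes at 1 probe set each and 0.0365% of genes in that range, and 7 had an unadjusted limma p under 0.05 (6 large and 1 small subunit genes). That is 9.33%, against 9.89% of genes at 1 probe set each and 19.3% of genes in that range. All 6 calls rest on the within-batch comparison, and all 6 were lost when batch 2 was left out. Calls then became fewer over the whole array as well. Without batch 2, 0.474% of all probe sets were called lower and 2.10% higher, against 1.51% and 4.58% with all batches. Of 22 alternative settings, MRPL58 passed in 18, MRPS28 in 17, MRPS26 in 16, MRPL19 in 15, MRPL34 in 13 and MRPL11 in 12, each with an unchanged direction. The 22 settings are not all distinct. With batch as block, leaving out 1 array gives the same fit as leaving out its batch. A threshold of 0.1 cannot lose a call made at 0.05. These counts are therefore no measure of how firm a call is.

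MRPL58, also known as ICT1, is a peptidyl-tRNA hydrolase that is built into the large subunit and can release chains from stalled mitoribosomes. It read 9.98, 9.85 and 9.83 with LEF1 siRNA and 10.12, 10.21 and 10.30 with scrambled siRNA in batches 1, 2 and 3. All LEF1 siRNA arrays lay below all scrambled siRNA arrays, so the groups did not overlap. The difference of -0.33 (SE 0.07) left 79.8% of the signal, with a limma adjusted p of 0.00995 with batch as block and 0.207 without.

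MRPL11 sits at the base of the stalk where translation factors bind. Its values were 10.09, 9.89 and 10.04 with LEF1 siRNA, against 10.16, 10.13 and 10.47 with scrambled siRNA. The groups did not overlap, but the gap in batch 1 was small, at -0.07, against -0.24 in batch 2 and -0.42 in batch 3. The mean difference was -0.24 (limma adjusted p = 0.0483 with batch as block, 0.597 without). The call was also lost without batch 3, with array weights and with a trended, robust eBayes.

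MRPL34, a small protein of a family shared with bacteria, read 10.25, 10.18 and 10.28 with LEF1 siRNA and 10.36, 10.42 and 10.64 with scrambled siRNA. Again each LEF1 siRNA array lay below each scrambled siRNA array. Its difference was -0.23 (limma adjusted p = 0.039 with batch as block, 0.486 without). This call too was lost without batch 3 and with a trended, robust eBayes.

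MRPS28, a small subunit protein, had 10.05, 9.85 and 10.28 with LEF1 siRNA and 10.22, 10.18 and 10.63 with scrambled siRNA. Here the groups overlapped, because both arrays of batch 3 were high, while the difference had the same sign in each batch. It came to -0.28 (limma adjusted p = 0.0116 with batch as block, 0.723 without).

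MRPS26, a small subunit protein with no bacterial counterpart, read 10.01, 10.13 and 10.14 with LEF1 siRNA and 10.15, 10.51 and 10.43 with scrambled siRNA. The lowest scrambled siRNA array, that of batch 1, was barely above the highest LEF1 siRNA array. The difference was -0.27 (limma adjusted p = 0.0173 with batch as block, 0.505 without). Its second, dim probe set differed by 0.10 and did not pass (limma adjusted p = 0.485 with batch as block), and averaging the probe sets ended the call.

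MRPL19, whose bacterial relative lies at the contact between the subunits, was the only gene that rose. It read 10.48, 10.39 and 10.59 with LEF1 siRNA and 10.32, 9.99 and 10.38 with scrambled siRNA, with no overlap. The difference was 0.26, or 1.20-fold (limma adjusted p = 0.0242 with batch as block, 0.612 without). A dim probe set of MRPL19 near the array median also passed, at 0.21, and the remaining one did not, at 0.02. The call of the brightest probe set was lost after scaling to the poly-A spike-ins and when all MRPL19 probe sets were averaged.

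**Figure D1:**
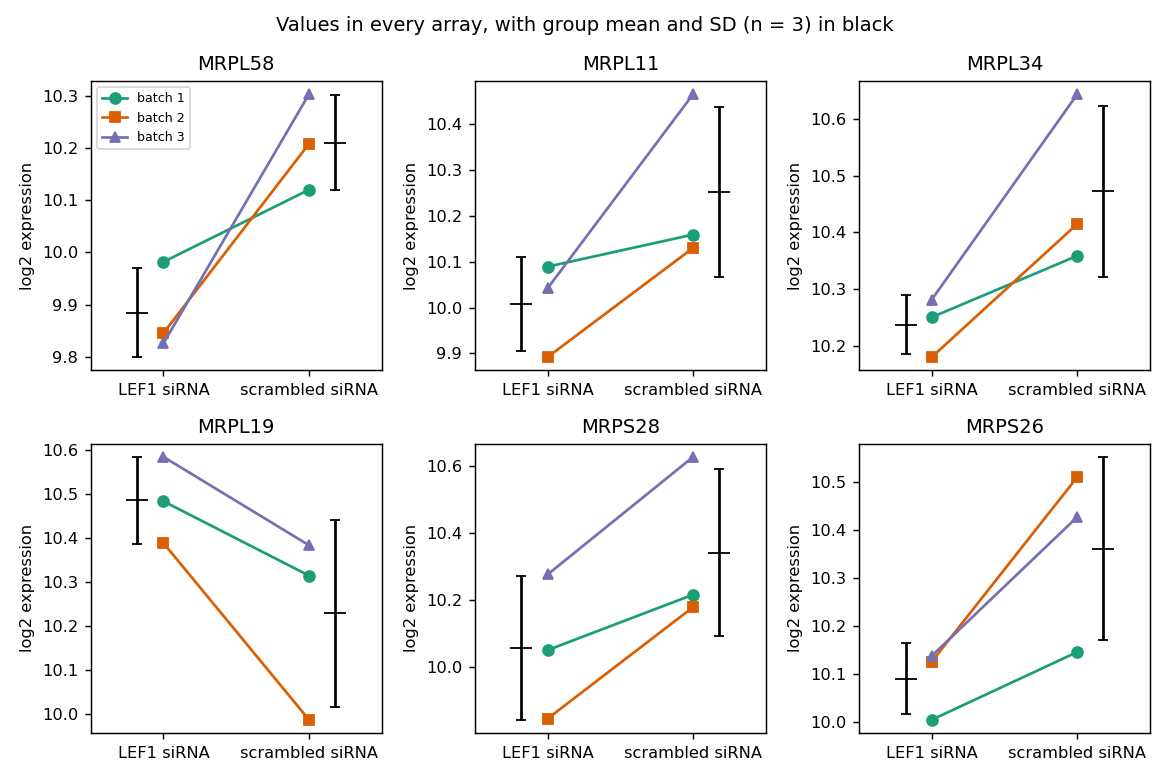
Log2 expression (vertical axes, not starting at 0) of the 6 genes that passed with batch as block, LEF1 siRNA left and scrambled siRNA right. Lines join the arrays of 1 batch and black bars give the group mean and SD (n = 3); lines for MRPL58, MRPL11, MRPL34, MRPS28 and MRPS26 show lower and for MRPL19 higher LEF1 siRNA values in all 3 batches.

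Small differences were the rule among the rest. Of the 75 genes, 45 differed by less than 0.1, and differences ran from -0.33 to 0.26. The median SE of a gene's difference was 0.06. The smallest difference that passed was 0.23, and the largest that did not was 0.26. Averaged over the batches, 57 of 75 genes (76.0%) were lower with LEF1 siRNA, 38 of the large and 19 of the small subunit. The corresponding share was 40.2% of genes in the same range of means, 46.6% of the 1166 genes of like level and 40.8% of all genes. It was 73.8% of cytosolic ribosomal protein genes and 54.7% of respiratory chain and ATP synthase genes, 2 groups taken up further below. By the mean over batches, a large share of lower genes was thus not particular to the mitochondrial ribosomal protein genes. The median difference was -0.06 in each subunit, against 0.04 for genes in that range, 0.01 for the genes of like level and 0.02 for all genes. In all 3 batches 24 genes (32.0%) were lower and 8 (10.7%) higher, against 19.3% lower and 36.4% higher for genes in the range of means and 23.0% and 32.7% for the genes of like level. The same shares were 13.7% and 26% of all genes at 1 probe set each, and 14.4% and 22.1% of all probe sets. They were 8.20% and 4.92% of cytosolic ribosomal protein genes, and 10.7% and 10.7% of respiratory chain and ATP synthase genes. Groups did not overlap for 7 genes lower and 2 genes higher (9.33% and 2.67%). The shares were 4.86% and 12.8% of genes in that range, and 5.83% and 9.86% of the genes of like level. All genes at 1 probe set each gave 4.03% and 9.52%, and all probe sets 4.59% and 7.88%. Cytosolic ribosomal protein genes gave 1.64% and 0%, and respiratory chain and ATP synthase genes 4.00% and 2.67%. Besides MRPL58, MRPL11, MRPL34 and MRPS26, the 7 lower genes were MRPL21, MRPS17 and MRPS18A, which did not pass. Besides MRPL19, the brightest probe set of MRPL30 lay higher without overlap and did not pass. These genes share arrays and are not independent of each other.

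The size of the shift differed between batches. The median difference of large subunit genes was 0.02, -0.08 and -0.15 in batches 1, 2 and 3, and that of small subunit genes was 0.04, -0.05 and -0.14. In batch 1, 30 of the 75 genes were lower with LEF1 siRNA, in batch 2, 48, and in batch 3, 65 (40.0%, 64.0% and 86.7%). The shares were 33.1%, 42.2% and 48.3% of genes in the range of means, and 33.6%, 48.2% and 55.1% of the genes of like level. They were 11.5%, 49.2% and 90.2% of cytosolic ribosomal protein genes, and 18.7%, 45.3% and 85.3% of respiratory chain and ATP synthase genes. For 39 genes (52.0%) batch 1 had the highest and batch 3 the lowest difference, with batch 2 between them. That order held for 26.9% of genes in the range of means and 31.5% of the genes of like level. It also held for 72.1% of cytosolic ribosomal protein genes and 54.7% of respiratory chain and ATP synthase genes.

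**Figure D2:**
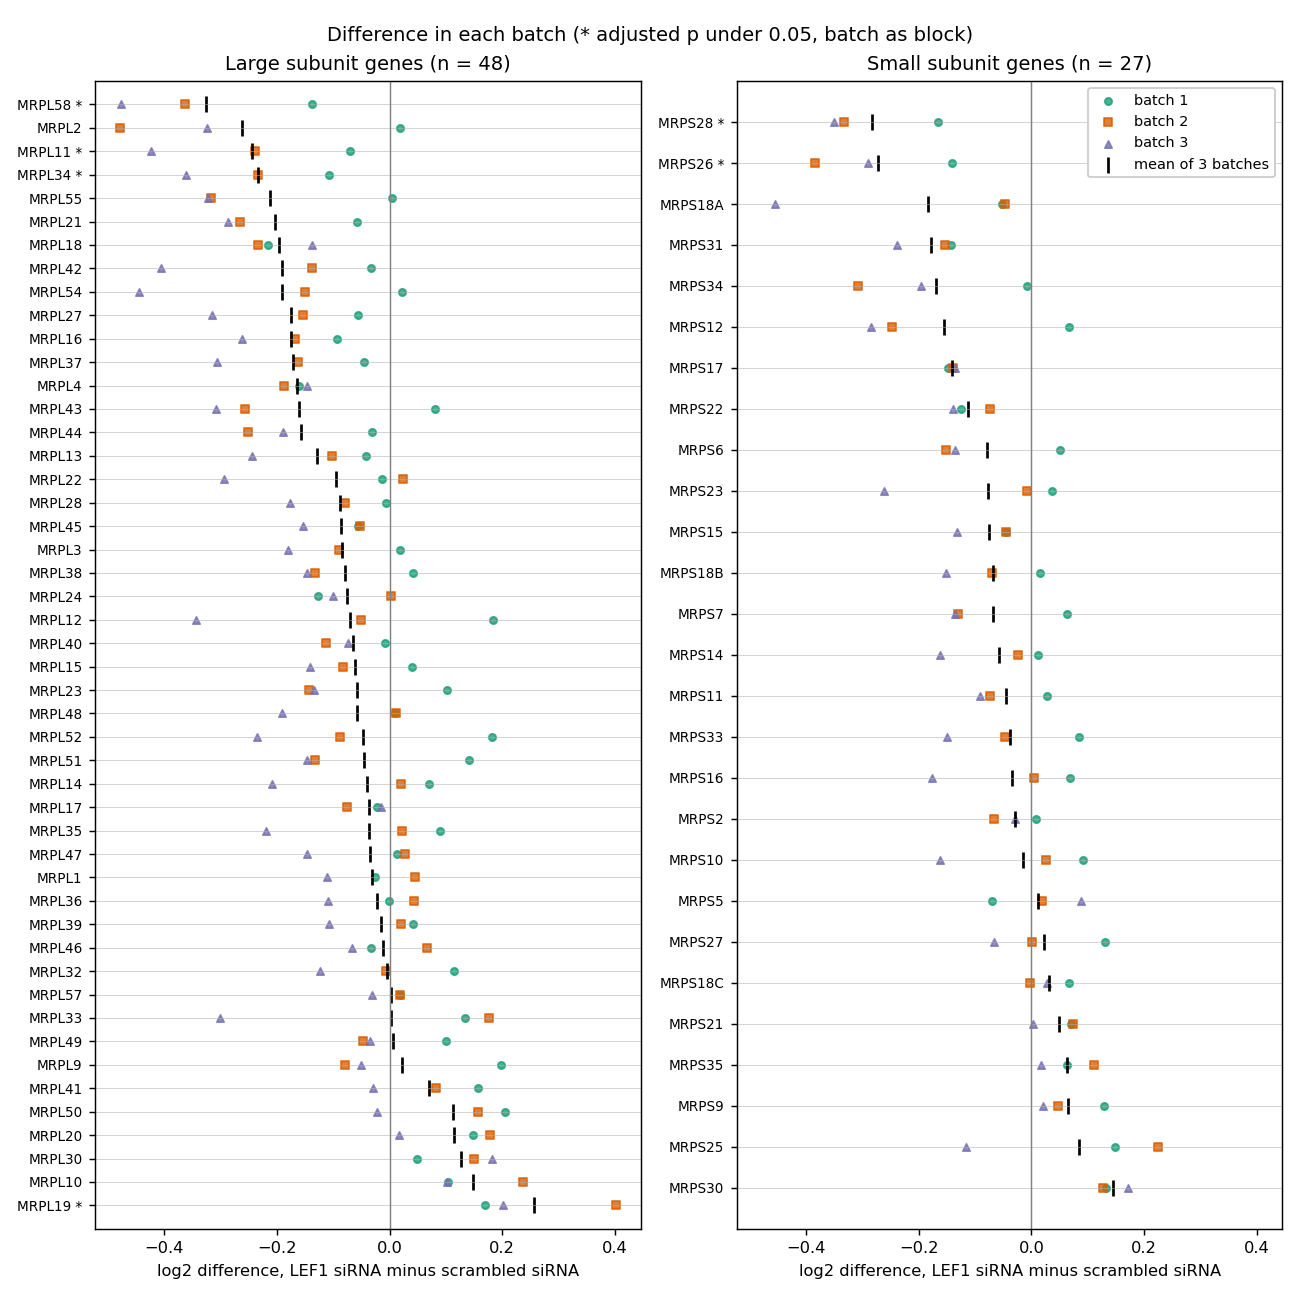
Log2 difference, LEF1 siRNA minus scrambled siRNA (horizontal axes), of 48 large subunit genes (left) and 27 small subunit genes (right), each batch as a coloured symbol and their mean as a black bar. Batch 3 lies left of 0 for 65 of the 75 genes, and batch 1 for 30; the 6 genes with an asterisk passed with batch as block.

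The scrambled siRNA array of batch 3 stood apart for these genes. Each gene's value was set against its own mean over 6 arrays. The median deviation of large subunit genes was -0.02, -0.11 and 0.03 in the LEF1 siRNA arrays of batches 1, 2 and 3, against -0.02, -0.04 and 0.19 in the scrambled siRNA arrays. Small subunit genes gave -0.02, -0.08 and 0.04 with LEF1 siRNA and -0.04, -0.03 and 0.18 with scrambled siRNA. Thus in batch 3 the scrambled siRNA array was high, while in batch 2 the LEF1 siRNA array was low, and in batch 1 both lay near the mean. Genes in the same range of means were high in both arrays of batch 3, at 0.11 with LEF1 siRNA and 0.10 with scrambled siRNA. Without batch 1 the median difference over all 75 genes was -0.10. When the scrambled siRNA array of batch 3 alone was left out of the group means, the medians were 0.01 for the large and 0.0086 for the small subunit, a comparison that leaves its partner array in place. With both arrays of batch 3 left out they were -0.02 and -0.03. The poly-A spike-ins, control RNAs, averaged 7.99, 7.77 and 8.18 in the LEF1 siRNA arrays and 7.86, 7.69 and 8.03 in the scrambled siRNA arrays. They were thus higher in the LEF1 siRNA array of every batch, as was the difference between 3' and 5' probe sets of ACTB, a measure of RNA quality (0.18, 0.30 and 0.22 with LEF1 siRNA and 0.07, -0.03 and 0.10 with scrambled siRNA). The same measure for GAPDH did not follow the groups, at 0.038, 0.061 and 0.099 with LEF1 siRNA and 0.037, 0.062 and 0.099 with scrambled siRNA. The part of the spike-ins and of ACTB in these differences was not tested.

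**Figure D3:**
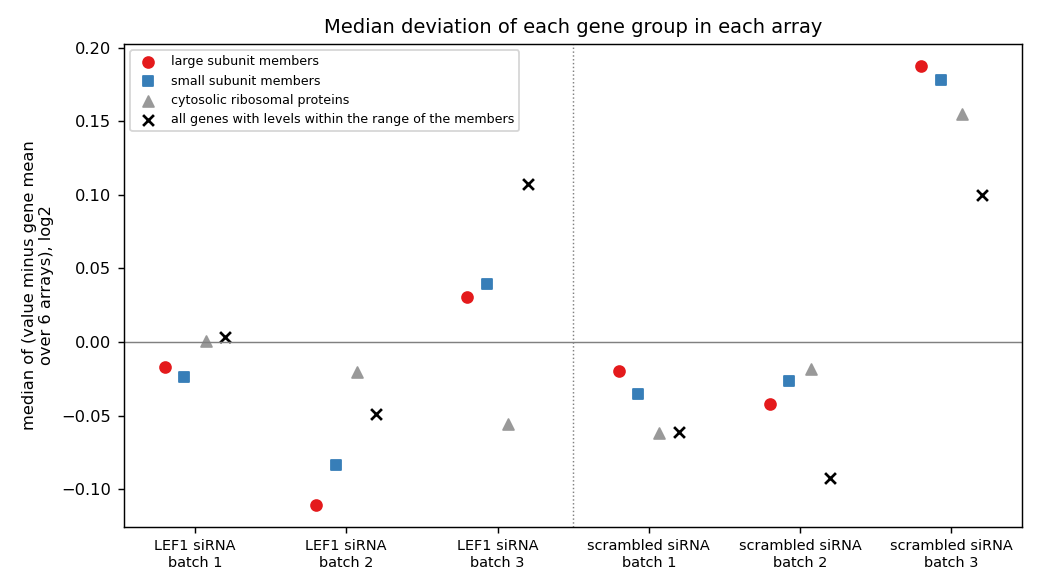
Median over each gene group of the value minus the gene's mean over 6 arrays (log2, vertical axis), for the 3 LEF1 siRNA arrays (left) and the 3 scrambled siRNA arrays (right). The scrambled siRNA array of batch 3 holds the highest medians of both subunits, at 0.19 and 0.18, and the LEF1 siRNA array of batch 2 the lowest, at -0.11 and -0.08.

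Among the stalk proteins of the large subunit only MRPL11 passed. MRPL10, which anchors the stalk, read 10.33, 10.23 and 10.40 with LEF1 siRNA and 10.23, 9.99 and 10.30 with scrambled siRNA. It was higher in each batch, at a mean difference of 0.15 (limma adjusted p = 0.19 with batch as block). MRPL12, which forms the mobile arm of the stalk, was among the 3 large subunit genes with the widest spread of batch differences, at 0.18, -0.05 and -0.34. Its mean difference was -0.07 (limma adjusted p = 0.769 with batch as block). The 3 stalk genes therefore did not share a direction across batches.

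MRPL2 had the largest mean difference that did not pass. MRPL2, whose bacterial relative lies next to the peptidyl transferase centre, read 9.22, 9.11 and 8.75 with LEF1 siRNA and 9.20, 9.59 and 9.08 with scrambled siRNA. The groups overlapped, the batch differences were 0.02, -0.48 and -0.32, and the mean of -0.26 had a limma adjusted p of 0.0704 with batch as block. MRPL33, a small protein of a family shared with bacteria, was the third of the widest spreads, at 0.13, 0.18 and -0.30. MRPL21 and MRPL18, of families shared with bacteria, differed by -0.20 each (limma adjusted p = 0.0761 and 0.0598 with batch as block). MRPL18 read 10.94, 11.08 and 11.27 with LEF1 siRNA and 11.16, 11.31 and 11.41 with scrambled siRNA, and was lower in each batch. On the other side, MRPL30 and MRPL20, of families shared with bacteria, differed by 0.13 and 0.11 (limma adjusted p = 0.28 and 0.358 with batch as block). At these brightest probe sets both were higher in each batch, though MRPL20 by only 0.02 in batch 3. The next probe set of MRPL30 was lower in each batch, at -0.13.

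In the small subunit MRPS18A, MRPS31 and MRPS34 followed the 2 called genes. MRPS18A is named as a small subunit protein but was placed in the large subunit by structures of the mitoribosome. It read 9.51, 9.51 and 9.47 with LEF1 siRNA and 9.56, 9.56 and 9.92 with scrambled siRNA, so most of its difference of -0.18 came from the scrambled siRNA array of batch 3 (limma adjusted p = 0.213 with batch as block). Its paralogs MRPS18B and MRPS18C, both of the small subunit, differed by -0.07 and 0.03 (limma adjusted p = 0.656 and 0.872 with batch as block). MRPS31 differed by -0.18 and MRPS34 by -0.17, and neither passed (limma adjusted p = 0.0887 and 0.17 with batch as block). Another MRPS31 probe set of nearly the same mean level, 10.62 against 10.65, went the other way. It differed by 0.08, at -0.06, 0.03 and 0.27 in batches 1, 2 and 3, and the dim remaining one by -0.07. No direction is therefore given for MRPS31 as a gene. MRPS12, a protein of the decoding centre, read 11.61, 11.54 and 11.60 with LEF1 siRNA and 11.54, 11.79 and 11.89 with scrambled siRNA. Its batch differences changed sign, at 0.07, -0.25 and -0.28, with a mean of -0.15 (limma adjusted p = 0.27 with batch as block).

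No small subunit gene was called higher at its brightest probe set. MRPS30, which structures also place in the large subunit, had the largest positive difference, at 0.14, and was higher in each batch (limma adjusted p = 0.18 with batch as block). It read 10.97, 10.83 and 11.05 with LEF1 siRNA and 10.84, 10.70 and 10.88 with scrambled siRNA. The dimmer probe sets of MRPS30 were also higher in each batch, at 0.21 and 0.17. They did not pass either (limma adjusted p = 0.0625 and 0.113 with batch as block). With the mean of its probe sets MRPS30 passed (limma adjusted p = 0.0439 with batch as block), in 1 of the 22 alternative settings. MRPS9, MRPS35 and MRPS21 were also higher in each batch, by 0.07, 0.06 and 0.05, and did not pass (limma adjusted p = 0.662, 0.671 and 0.767 with batch as block). MRPS25 had a wide spread, at 0.15, 0.22 and -0.12 in batches 1, 2 and 3.

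Genes of families shared with bacteria and genes without a bacterial ribosomal counterpart are given side by side, as listed beforehand. MRPS18A and MRPS18B, neither of which passed, were listed as without one, although their paralog MRPS18C was listed as shared. Of 44 genes listed as shared 3 fell (MRPL11, MRPL34 and MRPS28) and 1 rose (MRPL19), or 6.82% and 2.27%. Of 31 listed as without a counterpart 2 fell (MRPL58 and MRPS26), or 6.45%, and 0 rose. Genes in the range of means gave 4.86% lower and 14.7% higher, and all genes 1.7% and 6.73%. The median differences were -0.06 and -0.07. In batch 3, 36 of 44 and 29 of 31 were lower with LEF1 siRNA.

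Other probe sets of the same genes did not always follow the brightest one. Of the 75 genes 37 had more than 1 probe set, up to 5, and in 20 of them the probe sets differed in sign. Among the 65 probe sets not chosen the median difference was 0.02, against -0.06 for the chosen ones. Their median level was 7.69, against 10.71 for the chosen ones, and 14 lay below the array median. Of all probe sets on the array, 1.51% passed as lower and 4.58% as higher. Among the 65 not chosen, 1 passed as lower and 5 as higher. The lower one belonged to MRPL2, at -0.24, close to the -0.26 of its brightest probe set. The higher ones belonged to MRPL50, MRPL44, MRPL30, MRPL19 and MRPL43. The MRPL2 and MRPL50 probe sets are named because of their values.

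MRPL44, a protein with a fold related to RNase III enzymes, was such a case. Its dimmer probe set read 8.74, 8.53 and 8.36 with LEF1 siRNA and 8.39, 8.16 and 8.31 with scrambled siRNA. It was higher in each batch, at 0.26 (limma adjusted p = 0.0372 with batch as block). The brightest probe set read 10.34, 10.15 and 10.13 with LEF1 siRNA and 10.37, 10.40 and 10.32 with scrambled siRNA, and was lower in each batch, at -0.16 (limma adjusted p = 0.181 with batch as block). The dimmer MRPL44 probe set carries the array's suffix for probes that may cross-hybridise.

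MRPL43 likewise had 1 probe set that passed, at 0.21, while its brightest one differed by -0.16. That MRPL43 probe set read 9.22, 9.22 and 9.23 with LEF1 siRNA and 9.06, 9.03 and 8.96 with scrambled siRNA, without overlap. MRPL30 had 5 probe sets, of which 1, at a mean of 7.42, passed at 0.24, while the brightest differed by 0.13 and the next by -0.13. For MRPL50 a probe set of a mean of 10.31 passed at 0.35, with batch differences of 0.55, 0.49 and 0.02, and the brightest differed by 0.11. MRPL50 is a large subunit protein with no bacterial counterpart. No direction is therefore given for MRPL43, MRPL44 or MRPL30 as genes.

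**Figure D4:**
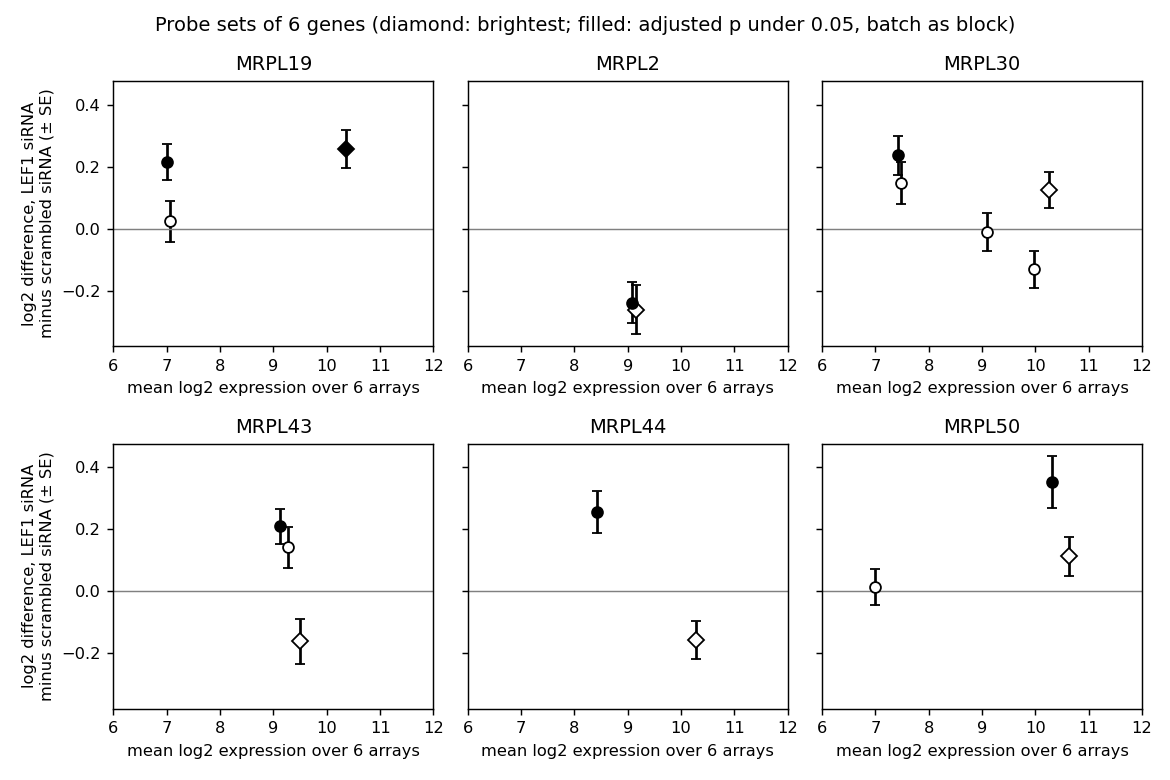
Log2 difference, LEF1 siRNA minus scrambled siRNA, with its limma SE (batch as block; vertical axes), against the mean log2 expression over 6 arrays (horizontal axes), for each probe set of 6 genes. For MRPL43 and MRPL44 the filled circles, which passed at 0.21 and 0.26, lie above 0 while the diamonds of the brightest probe sets lie at -0.16.

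Proteins of the mitoribosome that carry other symbols gave no calls. Of 5 such genes 4 were measured and 0 passed (limma with batch as block), and 0 of them had an unadjusted p under 0.05 without block. DAP3, a GTP-binding small subunit protein, differed by 0.09, CHCHD1 by -0.05, PTCD3 by -0.08 and GADD45GIP1 by -0.11.

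Genes that build or serve the mitoribosome were counted by list, to be read against the 1.7% of all genes called lower and 6.73% called higher. Of 26 assembly factors 1 rose and 0 fell. It was MTERF4, which acts in large subunit assembly together with the RNA methyltransferase NSUN4. MTERF4 averaged 9.14 ± 0.16 with LEF1 siRNA and 8.85 ± 0.16 with scrambled siRNA (SD, n = 3 each), a difference of 0.29 (limma adjusted p = 0.0151 with batch as block, 0.515 without). Of 13 measured translation factors 1 rose and 0 fell, the elongation factor gene GFM1, at 0.22 (limma adjusted p = 0.044 with batch as block, 0.843 without). Of 18 genes of mitochondrial RNA synthesis and processing 0 passed, also without block, where 0 had an unadjusted p under 0.05. Of 10 regulators of mitochondrial biogenesis 1 rose, TFEB, at 0.42 (limma adjusted p = 0.000769 with batch as block, 0.182 without), which is better known as a regulator of lysosome genes. The median differences of these 4 lists were -0.0032, 0.05, 0.04 and -0.02, against -0.06 for each set of subunit genes.

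Cytosolic ribosomal protein genes and nuclear genes of respiratory chain and ATP synthase subunits were set beside them, by the same limma fit with batch as block. Among 61 cytosolic ribosomal protein genes 1 fell (RPL39L, at -0.25) and 1 rose (RPL10L, at 0.31), or 1.64% each, against 1.7% and 6.73% of all genes. Both were far dimmer than most of that group, at means of 8.50 and 7.53 against a median level of 14.06. The median differences of the group were 0.06, 0.0046 and -0.21 in batches 1, 2 and 3, and -0.04 for the mean of the batches. Among 75 subunit genes of the respiratory chain and ATP synthase 1 fell (UQCRC1, at -0.25) and 1 rose (NDUFA5, at 0.31), or 1.33% each. Their medians were 0.10, 0.02 and -0.14 in the 3 batches, and -0.01 for the mean of the batches. The scrambled siRNA array of batch 3 was high in these groups as well, at median deviations of 0.155 and 0.14. Of the 3 groups, the mitochondrial ribosomal protein genes had the lowest median difference in batch 2, at -0.07 over all 75 genes. Without block 0 genes of either group passed in limma, where 2 cytosolic ribosomal protein genes and 3 of the other group had an unadjusted p under 0.05. The differences between these groups were not tested.

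**Figure D5:**
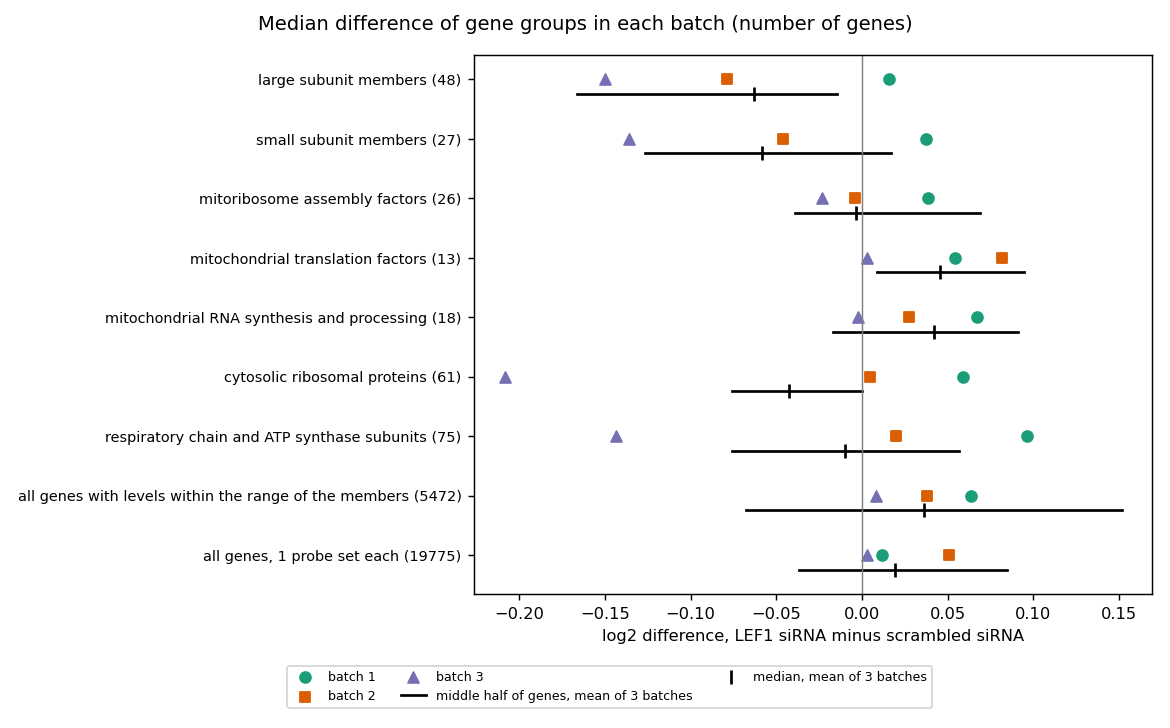
Median log2 difference, LEF1 siRNA minus scrambled siRNA (horizontal axis), of gene groups in each batch (coloured symbols), with the median and interquartile range of the mean differences in black. In batch 3 the medians of the subunit genes lie at -0.15 and -0.14, beside -0.21 for cytosolic ribosomal proteins and 0.0079 for all genes in the same range of means.

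Promoter windows were compared for 67 of the 75 genes that have a window in the RefSeq table of GRCh38.p14, 1 per gene, on both strands. A TCF/LEF core (CTTTGAA or CTTTGAT) was found in 1 of the 67, MRPS18C (1.49%), against 6.98% of 27305 windows of the same length. None of the called genes with a window held it. The ETS core CCGGAAG, the kind of site bound by GABP, a known regulator of mitochondrial genes, was in 28 of 67 (41.8%), against 10.7%. The YY1-type core AAGATGG was in 22 (32.8%), against 6.06%. The NRF1-type core GCATGCG was in 7 (10.4%), against 4.13%, and the E-box CACGTG, the kind bound by MYC, in 6 (8.96%), against 7.43%. In the windows shown above, MRPL58 has ETS cores that begin 193 and 8 bases before the start, MRPS26 has 1 that begins 37 bases before it, and MRPL11 has the YY1-type core 24 bases after it. MRPL19 has none of these letters in its window, and no matches in the windows shown overlap. The 27305 windows were not limited to expressed genes or to genes of like level, so these shares may not be particular to mitochondrial ribosomal protein genes. These matches describe letters in 1 window per gene and show no binding.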

How the data were processed

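Each array of the HG-U133 Plus 2.0 platform has 1 deposited log2 value for each probe set. That the deposited values are log2 was read from their range of 5.45 to 14.95, and array medians from 6.89 to 6.96 were close. The background correction and normalization used by the authors are not given in the sources used here. Per the labels' protocols, cRNA was labelled from the 3' ends of transcripts.

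Gene names came from the platform annotation (0 symbols changed against RefSeq of GRCh38.p14). All 54613 probe sets other than 62 Affymetrix controls entered limma 3.58.1 (R 4.3.3, data.table version 1.17.8), with batch as block (2 residual and 12 prior degrees of freedom) and without (4 and 4.07). Two-sided p-values were adjusted by Benjamini and Hochberg's method across the whole table and called under 0.05. On simulated data for this comparison over 54613 probe sets, with 100 changed by 0.5 and 100 by 1, the fit with batch as block recovered 100% and 100% with 10 false calls among 210, and the fit without block recovered 41% and 98%. No change as small as those reported was simulated.

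The genes, lists, rule for named genes and tests were chosen with earlier results of these data known. Named were all genes past the threshold, in each subunit up to 5 each with the largest fall and rise in 3 batches and the 3 widest batch spreads, genes fixed by role, and genes whose probe sets disagreed in sign with 1 past the threshold. From each list up to 4 called genes were named. AURKAIP1, GFM2 and PDF had no probe set naming them alone. Alternatives changed the block, the scaling, the filter on dim probe sets, the choice of probe set, the variance model, the threshold and the arrays used. Replicate numbers follow the batch label, which pairs the arrays. Plots were made in Python 3.11.15 with pandas 2.3.3 and matplotlib 3.10.9. The number of arrays limits the precision.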

Additional observations from a re-analysis of the deposited data

How the results depend on the processing

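Main values were 3 large subunit genes lower, 1 higher, 2 small subunit genes lower and 0 higher with batch as block, and 0 without. Without the block these 4 counts were 0, and with the block as replicate term the 0 calls of the unblocked fit became 4 large and 2 small subunit genes. Genes called lower in the large subunit numbered 6 after quantile normalization, 6 after cyclic loess and 5 with the mean of all probe sets per gene. They numbered 1 with a trended, robust eBayes, 7 at a threshold of 0.1 and 1 at 0.01. The share of all probe sets called lower also moved, from 1.51% to 2.66% with quantile normalization, 2.37% with cyclic loess and 1.28% with that eBayes. With the mean of all probe sets, 1.81% of all genes were called lower, against 1.70% at 1 probe set each. Scaling to the poly-A spike-ins, added controls that were higher with LEF1 siRNA, lowers every difference alike and put the median over all probe sets at -0.11. It gave 22 large and 10 small subunit genes lower and 0 large subunit genes higher, at medians of -0.18 for each subunit, and it called 14.3% of all probe sets lower. On the deposited scale 75.2% of all calls were higher, against 66.2% when array medians were equalised, 60.1% for cyclic loess, 56.2% for quantile normalization and 11.0% for spike-in scaling. Large subunit genes called higher numbered 3 when the most variable probe set stood for each gene, and 0 with the mean of all probe sets and at a threshold of 0.01. Small subunit genes called lower numbered 1 with the mean of all probe sets, where 1, MRPS30, was higher, and 0 at a threshold of 0.01. Leaving out 1 array or 1 batch gave 0 to 9 large and 0 to 4 small subunit genes lower and 0 to 1 large subunit genes higher; with batch as block, leaving out 1 array removes its batch from the comparison. Leaving out batch 2 gave 0 calls and batch 1 gave the highest counts. Over all probe sets, 0.474% were called lower and 2.10% higher without batch 2. The shares were 2.22% and 4.89% without batch 1, and 1.69% and 4.95% without batch 3. With the most variable probe set MRPL44 turned to 0.26 (limma adjusted p = 0.0372). The median difference of each subunit was 0.01 (large) and 0.0086 (small) without the scrambled siRNA array of batch 3, whose partner stayed in, and below 0 under the other settings run, including both arrays of batch 3 left out (-0.02 and -0.03). The causes of these changes were not tested.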
